A study of Homo sapiens with 2 samples.

Results

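The genes described here are 10 components of the unfolded protein response of the endoplasmic reticulum (ER), taken by their symbols from deposited tables of 60619 genes. They are the stress sensors ERN1, ATF6 and EIF2AK3, the transcription factor XBP1, the folding factors HSPA5, HSP90B1, DNAJB9, SDF2L1 and PDIA4, and HERPUD1, which serves protein degradation. All 10 were found and all 10 passed the filter on low counts, which 13304 genes passed (10 counts or more in 1 library and 1 CPM, or count scaled to library size, on average). Total RNA was sequenced from HBEC-3KT, a human bronchial epithelial line immortalized with CDK4 and TERT that grows as basal-like cells. The CBS overexpression cells had received a pLenti6 lentivirus carrying human CBS, which encodes the transsulfuration enzyme cystathionine beta-synthase. The empty-vector cells had received pLenti6 virus without it. Both had been exposed to virus for 4 to 8 hours, put under blasticidin at 10 µg/mL and grown on gelatin for 4 to 5 days, so that transduction and selection were common to both. Whether the cells were a pool or a clone was not stated. The design asked how CBS expression bears on Polycomb repressive complex 2, and the unfolded protein response was not named as its subject.

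There was 1 library per group, and the estimated counts summed to 20785957 with CBS overexpression, against 20433062 without it. An effect of CBS and a difference between 2 cultures cannot be told apart, no replicate stands behind any difference below, and the conditions could not be tested against each other. Intervals are 95% intervals that cover counting error only. CBS itself had 3669 counts after CBS transduction, against 280 with the empty vector, a 12.2-fold higher level, although its split from the near-identical copy CBSL is uncertain. All 6 markers of bronchial basal epithelium reached 10 counts in each library, and their summed level was 4354 TPM (transcript levels scaled for length and depth) with CBS and 6757 with the empty vector. For 4 general epithelial markers the sums were 3777 TPM with CBS and 2344 TPM with the empty vector. Single markers did not all follow these sums. As ratios of scaled counts, CBS over empty vector, the basal markers KRT5, KRT14, KRT17 and ITGB4 were at 0.607, 0.224, 0.356 and 0.808. TP63 at 0.970 and ITGA6 at 0.934 were nearly level. Of the epithelial markers, KRT8, KRT18 and EPCAM were higher, at 1.38, 1.60 and 1.45, and CDH1 was lower, at 0.844. Among 5 fibroblast markers DCN, LUM and COL1A2 had no count in either library (sums of 3.18 TPM with CBS and 3.91 TPM with the empty vector). COL1A1 was detected and lower in the CBS library, at 132 counts against 270, a ratio of 0.457. Among 5 immune markers PTPRC, CD3E and LYZ had no count in either library (9.64 TPM with CBS and 8.74 TPM with the empty vector). CD14 was detected and nearly level, at 225 counts in the CBS library against 203, a ratio of 1.04. Of 4 plasma cell markers, which stand for a professional secretory cell, 1 reached 10 counts in each library, and it was SDC1, which epithelium also makes, while JCHAIN had no count (346 TPM in all with CBS and 437 TPM with the empty vector). In the CBS library 4 endothelial markers summed to 1.66 TPM, 2 ciliated cell markers to 1.29 TPM and 3 secretory airway markers to 0 TPM, against 0.56, 0.55 and 0.21 TPM in the empty-vector library. These low sums hid single differences. In the CBS library endothelial CDH5 had 87 counts, against 7, a ratio of 11.6, and ciliated DNAH5 had 94, against 26, a ratio of 3.38. Endothelial PECAM1 and secretory MUC5AC went the other way, at 1 and 0 counts in the CBS library, against 8 and 10. The part of these marker differences in the results below was not tested. In bulk RNA, fewer cells of a type and less RNA per cell cannot be told apart.

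When unfolded proteins gather in the ER, HSPA5 (BiP) is thought to leave the luminal domains of the sensors. ERN1 (IRE1) then splices XBP1 mRNA, EIF2AK3 (PERK) phosphorylates eIF2alpha and favours translation of ATF4, and ATF6 is cut in the Golgi to free a transcription factor. Spliced XBP1 and cleaved ATF6 switch on chaperone, oxidoreductase and degradation genes, many of them through ER stress response elements in their promoters. These signals act on splicing, phosphorylation and cleavage, none of which a gene-level count shows.

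The promoters of the 5 members that hold an element of this kind are shown because they are the sequence through which ATF6 and XBP1 are known to act. RefSeq windows of 300 bases, 250 before to 50 after the annotated start on GRCh38.p14, were found for all 10 members. The element ERSE was searched as CCAAT, any 9 bases and CCACG, and ERSE-II as ATTGG, any 1 base and CCACG, on both strands. Each contains a CCAAT box, on 1 strand or the other. Only exact matches were counted, so a promoter without a match may still hold a near match. The 250 upstream bases follow, 5′ to 3′ on the strand of the gene, with ERSE or ERSE-II letters in capitals. HSPA5 is at chr9:125241344-125241593 on the minus strand, HSP90B1 at chr12:103930160-103930409 on the plus strand, SDF2L1 at chr22:21642052-21642301 on the plus strand, XBP1 at chr22:28800570-28800819 on the minus strand and HERPUD1 at chr16:56931892-56932141 on the plus strand.
HSPA5: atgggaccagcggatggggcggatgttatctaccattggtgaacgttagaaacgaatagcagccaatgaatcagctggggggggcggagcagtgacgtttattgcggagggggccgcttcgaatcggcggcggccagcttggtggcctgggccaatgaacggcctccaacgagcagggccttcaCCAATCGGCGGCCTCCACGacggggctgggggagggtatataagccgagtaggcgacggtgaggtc
HSP90B1: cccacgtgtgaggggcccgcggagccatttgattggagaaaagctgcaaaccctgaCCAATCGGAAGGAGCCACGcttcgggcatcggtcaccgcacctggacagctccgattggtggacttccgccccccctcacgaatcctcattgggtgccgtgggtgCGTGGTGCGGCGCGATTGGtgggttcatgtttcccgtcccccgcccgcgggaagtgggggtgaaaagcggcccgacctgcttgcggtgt
SDF2L1: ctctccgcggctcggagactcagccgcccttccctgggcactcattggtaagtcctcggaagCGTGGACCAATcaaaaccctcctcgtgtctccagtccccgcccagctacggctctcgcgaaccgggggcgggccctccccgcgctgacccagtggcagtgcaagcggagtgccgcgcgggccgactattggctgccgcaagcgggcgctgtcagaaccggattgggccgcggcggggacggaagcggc
XBP1: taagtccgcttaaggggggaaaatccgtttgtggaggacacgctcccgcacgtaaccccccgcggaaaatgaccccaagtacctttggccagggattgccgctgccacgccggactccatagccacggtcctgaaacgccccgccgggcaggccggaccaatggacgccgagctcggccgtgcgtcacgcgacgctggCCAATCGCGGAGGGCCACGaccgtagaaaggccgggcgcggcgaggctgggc
HERPUD1: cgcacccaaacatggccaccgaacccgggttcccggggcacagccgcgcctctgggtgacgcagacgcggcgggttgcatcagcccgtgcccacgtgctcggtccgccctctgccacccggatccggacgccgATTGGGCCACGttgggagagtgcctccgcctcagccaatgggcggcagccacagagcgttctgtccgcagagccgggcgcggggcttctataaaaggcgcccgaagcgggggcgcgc

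ERSE letters were found for 3 members, HSPA5, HSP90B1 and XBP1, and ERSE-II letters for 2, HERPUD1 and SDF2L1. HSP90B1 held ERSE in each orientation, at bases -194 to -176 and -89 to -71 from the start site. The ERSE of HSPA5 lay at -66 to -48 and that of XBP1 at -52 to -34, and the ERSE-II of HERPUD1 at -117 to -107 and that of SDF2L1 at -188 to -178. Over all 35116 windows of the table, 0.0769% held ERSE and 0.0541% held ERSE-II. The simpler CCAAT box was found for 9 of the 10 members, the exception being ATF6, and in 34.6% of all windows. The element UPRE, searched as TGACGTGG on both strands, was found for none of the members and in 0.729% of all windows. These shares are by window, whereas the members were counted by gene. By gene, 9375 genes above the filter had a window, the members among them. Of these, 16 held ERSE, 14 ERSE-II, 4091 the CCAAT box and 112 UPRE. Elements of this kind were already known from promoters of this response, so matches among the members are no test of enrichment. A match to letters is a description and not evidence of binding. The 5 promoters that matched ERSE or ERSE-II belong to genes on both sides of the comparison: HSPA5, HSP90B1 and SDF2L1 were higher in the CBS library, and XBP1 and HERPUD1 were lower.

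**Figure D1:**
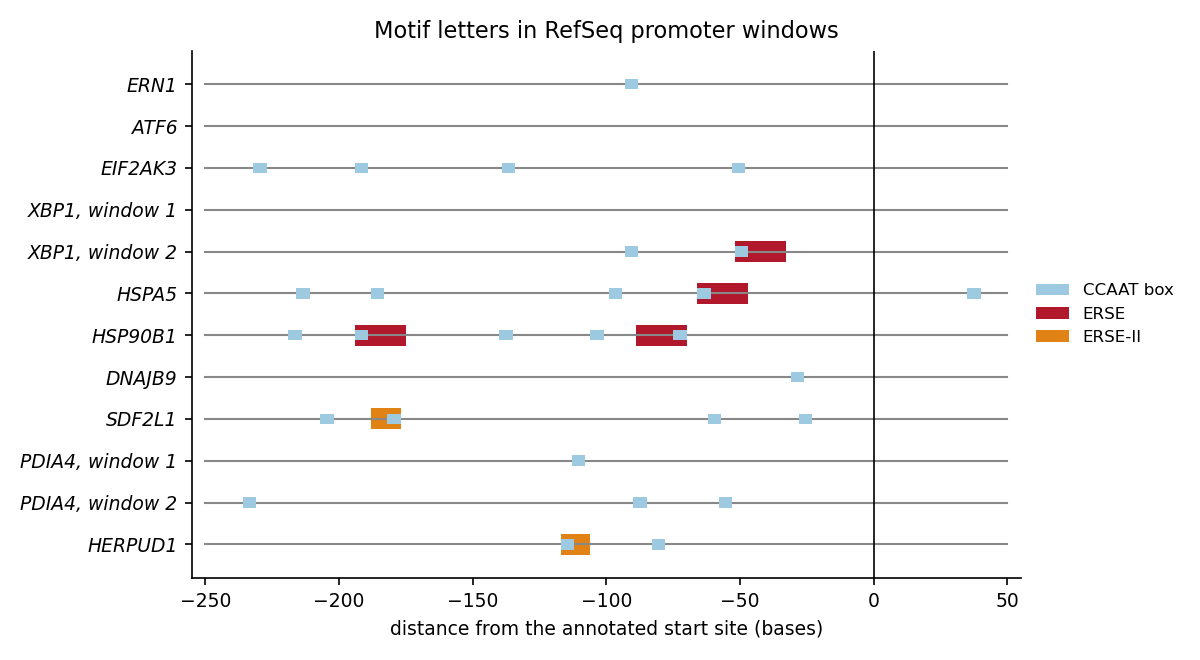
Positions of motif letters in the RefSeq promoter windows of the 10 genes, in bases from the annotated start site (vertical line); XBP1 and PDIA4 have 2 windows each, in order of genome position. Red marks ERSE, orange ERSE-II and pale blue the CCAAT box, and ERSE or ERSE-II is seen in 5 genes.

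The 5 luminal folding factors were all higher in the CBS library, by 1.18-fold to 1.63-fold, while ERN1, EIF2AK3, XBP1 and HERPUD1 were lower, with ratios of 0.597, 0.779, 0.617 and 0.502, and ATF6 had a ratio of 1.01. None of the 10 reached a 2-fold difference by its log2 fold, where 1.41% of all genes were called higher and 5.28% lower (a 2-fold difference with an interval that excludes a ratio of 1). At a threshold of 1.5-fold, 1 member was higher (HSP90B1) and 3 were lower (ERN1, XBP1 and HERPUD1), against 7.02% and 12.9% of all genes. By the interval alone, 5 members lay above a ratio of 1, 4 below and 1 held it, but 31.6% of all genes also lay above and 31.1% below. The median log2 fold of the 10 was 0.13, and that of all 13304 genes was 0.00. Ratios set CBS over empty vector with TMM-scaled libraries, and log2 folds include a prior count of 5.

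**Figure D2:**
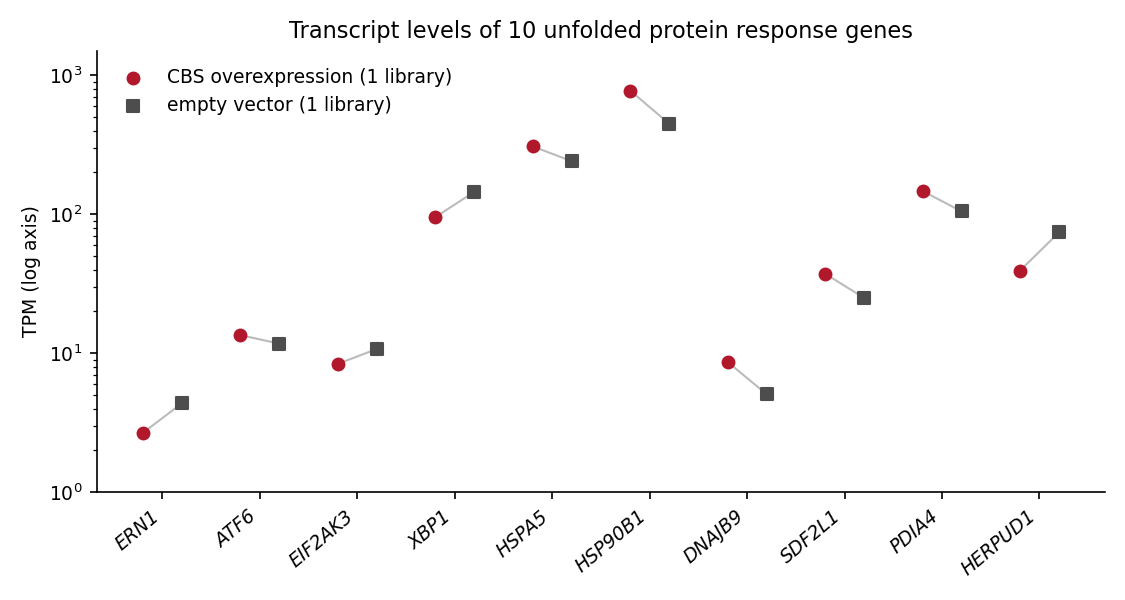
TPM of each gene (log axis) in the CBS library (red circles) and, to its right, the empty-vector library (grey squares), 1 library each. HSP90B1 is highest in each library, at 775 TPM with CBS and 448 TPM with the empty vector, and ERN1 is lowest, at 2.68 TPM with CBS and 4.37 TPM with the empty vector.

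Per length, the sensors and DNAJB9 were the scarcest members in each library. ERN1 (ENSG00000178607, GRCh38 chromosome 17, 64039142 to 64130819), the kinase and endoribonuclease that splices XBP1 mRNA, had 255 counts and 2.68 TPM in the CBS library, against 399 counts and 4.37 TPM in the empty-vector library. Its log2 fold was -0.73 (-0.98 to -0.51), and 13.6% of all genes had a log2 fold at least as far from 0. EIF2AK3 (chromosome 2, 88556741 to 88627576), the kinase that slows translation, had 306 counts and 8.39 TPM with CBS, against 367 counts and 10.7 TPM with the empty vector. Its log2 fold was -0.36 (-0.58 to -0.14), a size that 41.0% of all genes equalled or passed. ATF6 (chromosome 1, 161766294 to 161964070), the membrane-bound transcription factor, had 1096 counts and 13.5 TPM with CBS, against 1009 counts and 11.7 TPM with the empty vector. The log2 fold of ATF6 was 0.02 with an interval that held no difference (-0.10 to 0.15), and its sign depended on the scale, from -0.08 after correction for GC content and transcript length to 0.20 on log2(TPM + 0.1). The 3 sensors together had 1657 counts in the CBS library, against 1775 in the empty-vector library, a ratio of 0.872 (0.815 to 0.933). Within a library, where no scaling between libraries enters, ATF6 counts were 4.30 times those of ERN1 with CBS, against 2.53 times with the empty vector, a shift of 1.70-fold (1.42 to 2.03).

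XBP1 (chromosome 22, 28794555 to 28800597) encodes the factor whose mRNA ERN1 splices, and the counts do not separate spliced from unspliced mRNA. It had 2108 counts and 95.3 TPM in the CBS library, against 3190 counts and 144.99 TPM in the empty-vector library. The log2 fold was -0.69 (-0.78 to -0.62), and 15.0% of genes lay at least as far from 0. XBP1 and ERN1 were in similar proportion, with 8.27 XBP1 counts per ERN1 count after CBS, against 7.99 with the empty vector, a shift of 1.03-fold whose interval held 1 (0.875 to 1.22). Relative to HSPA5, in contrast, XBP1 was at 0.122 counts per count with CBS, against 0.233 with the empty vector, a ratio of 0.525 (0.495 to 0.557). In rank of TPM among the 13304 genes, XBP1 was at place 1523 with CBS and 902 with the empty vector.

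HSPA5 (chromosome 9, 125234853 to 125241330), the HSP70 of the ER lumen and the classical reporter of the response, had 17250 counts and 307.5 TPM with CBS, against 13703 counts and 240.7 TPM with the empty vector. The ratio was 1.18 (1.15 to 1.20) and the log2 fold 0.23, a size that 57.7% of all genes equalled or passed. The counting interval was narrow because the gene was deeply covered, and it says nothing of variation between cultures. On log2(TPM + 1) the HSPA5 difference was 0.35, where the median of all genes was 0.09, while correction for GC content and length left 0.17. HSP90B1 (chromosome 12, 103930107 to 103953645), the HSP90 of the ER lumen, which folds integrins and Toll-like receptors, had 26294 counts and 775 TPM with CBS, against 15064 counts and 448 TPM with the empty vector. Its log2 fold of 0.71 (0.68 to 0.73) was the highest of the 10 and stood at percentile 95.6 of all genes. HSP90B1 counts were 1.52 times those of HSPA5 with CBS, against 1.10 times with the empty vector, a shift of 1.39-fold (1.35 to 1.43).

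PDIA4 (chromosome 7, 149003062 to 149028641), a disulfide isomerase, had 6089 counts and 147 TPM with CBS, against 4242 counts and 104.8 TPM with the empty vector. Its log2 fold was 0.42 (0.37 to 0.48), and all the alternatives for PDIA4 lay between 0.42 and 0.50. SDF2L1 (chromosome 22, 21642261 to 21644298), a luminal partner of HSPA5 and its J-domain proteins, had 443 counts and 37.4 TPM with CBS, against 301 counts and 25.0 TPM with the empty vector. Its log2 fold was 0.45 (0.24 to 0.68). The longest SDF2L1 transcript had a GC content of 65.5%, against a median of 48.1% over all genes, and after correction for GC content and length the SDF2L1 difference was 0.79. DNAJB9 (ERdj4; chromosome 7, 108569568 to 108574850), a J-domain co-chaperone that holds ERN1 in check, had 157 counts and 8.66 TPM with CBS, against 109 counts and 5.07 TPM with the empty vector. Its log2 fold was 0.41 (0.07 to 0.79), the widest interval of the 10.

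DNAJB9 overlaps THAP5 (463 counts in CBS cells, 339 in empty-vector cells) and PNPLA8 (304 in CBS cells, 412 in empty-vector cells) at its start, its estimated counts were not whole, and strand use was not stated, so its count is uncertain. The authors' TPM gave DNAJB9 a log2 difference of 0.67 with a pseudocount of 1 and 0.76 with 0.1. Its ratio in TPM exceeded its ratio in counts by 0.23 log2 units beyond the median gene, a shift that 12.8% of genes equalled or passed. Correction for GC content and length left 0.28 for DNAJB9. HSPA5 and HSP90B1 also had values that were not whole, and the 4 pseudogene rows looked up, HSP90B2P, HSP90B3P, HSPA5P1 and XBP1P1, held at most 7 counts in either library. HSP90B1 overlaps C12orf73, which had 167 counts in the CBS library, against 129 in the empty-vector library.

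HERPUD1 (chromosome 16, 56932048 to 56944863), an ER membrane protein that helps assemble the HRD1 degradation complex, was the member furthest from equal levels. It had 550 counts and 39.3 TPM with CBS, against 1023 counts and 73.98 TPM with the empty vector. The ratio was 0.502 (0.452 to 0.558) and the log2 fold -0.99 (-1.15 to -0.84), at percentile 5.45 of all genes and just short of the 2-fold threshold. After correction for GC content and length it was -1.03, and HERPUD1 was then called 2-fold lower. Per count of HERPUD1 there were 31.4 of HSPA5 with CBS, against 13.4 with the empty vector, a shift of 2.34-fold (2.11 to 2.60). For SDF2L1 per HERPUD1 the values were 0.805 in CBS cells and 0.294 in empty-vector cells, a shift of 2.74-fold (2.29 to 3.28). Both shifts restate the folds of genes on opposite sides as a single larger number. They were not set beside the shifts of other gene pairs. SDF2L1 and HERPUD1 are the only members with an exact ERSE-II match, and they lay on opposite sides of the comparison.

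**Figure D3:**
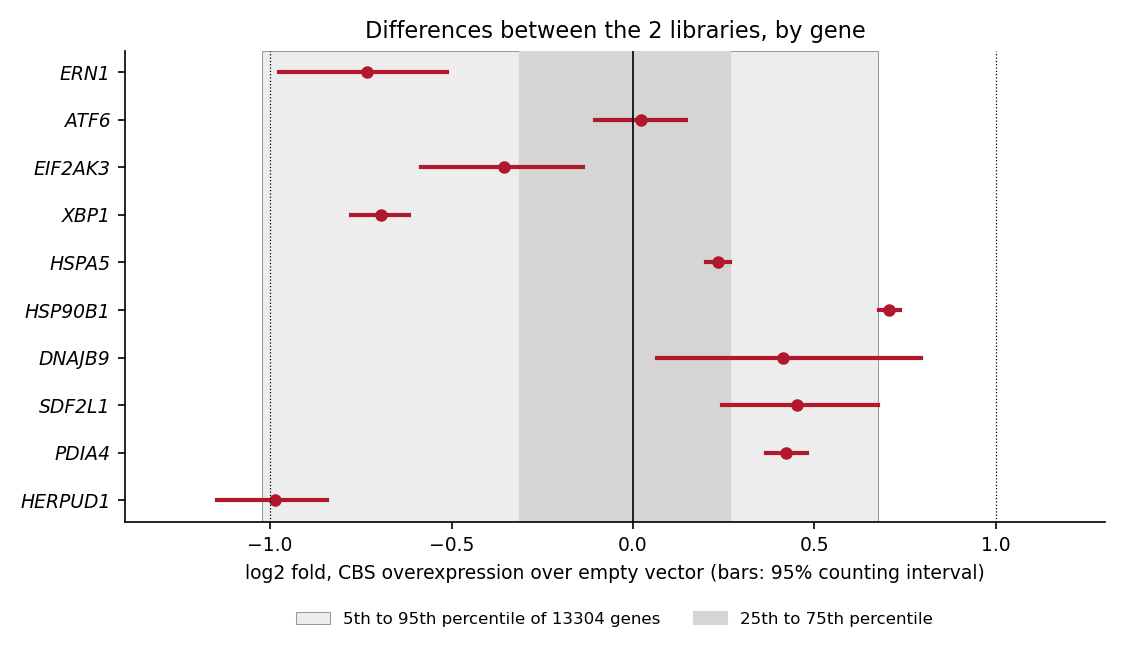
Log2 fold of each gene (points) with its 95% counting interval (bars), over the 5th to 95th and 25th to 75th percentiles of 13304 genes (light and dark grey); dotted lines mark 2-fold. The 5 folding factors lie right of 0, ERN1, EIF2AK3, XBP1 and HERPUD1 lie left of it, and ATF6 has an interval that crosses it.

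Per length, the members spanned a wide range within each library. Together they made up 0.144% of all TPM with CBS and 0.107% with the empty vector. HSP90B1 alone supplied 54.0% of the members' TPM with CBS and 41.9% with the empty vector, and XBP1 6.64% with CBS and 13.6% with the empty vector. In order of TPM, the CBS library ran HSP90B1, HSPA5, PDIA4, XBP1, HERPUD1, SDF2L1, ATF6, DNAJB9, EIF2AK3, ERN1. The empty-vector library differed in that XBP1 stood above PDIA4, and EIF2AK3 above DNAJB9. Counting intervals of neighbours overlapped for HERPUD1 with SDF2L1 and for DNAJB9 with EIF2AK3 in the CBS library, and for ATF6 with EIF2AK3 and for DNAJB9 with ERN1 in the empty-vector library.

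Genes around the members were described by 6 lists, by count and median beside those of all 13304 genes. The median log2 fold of all 13304 was 0.00, and 31.6% of them had an interval above a ratio of 1 and 31.1% below. On log2(TPM + 1) the median of all genes was 0.09, and on log2(TPM + 0.1) it was 0.10. Other ER chaperones and folding factors had, over 28 genes, a median log2 fold of 0.16, with 16 intervals above a ratio of 1, 6 below, and none called 2-fold. CRELD2, a secreted ER stress target, had 558 counts with CBS, against 342 without, and a log2 fold of 0.60 (0.41 to 0.81). The lectin chaperone CANX was at 0.47 (0.45 to 0.50), the glycoprotein sensor UGGT1 at 0.50 (0.40 to 0.61) and DNAJC3, a luminal co-chaperone also known as an inhibitor of EIF2AK3, at 0.41 (0.29 to 0.54). HSPA13, a microsomal HSP70 relative, was on the other side at -0.74 (-0.92 to -0.57). ERSE letters were found for 5 genes of this list, CALR, CANX, CRELD2, ERO1B and PDIA6, and ERSE-II letters for HYOU1, among 27 genes with a window.

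ER-associated degradation genes had a median of 0.08 over 25 genes, with 10 intervals above a ratio of 1 and 7 below. HERPUD2, the paralog of HERPUD1, was at -0.61 (-0.78 to -0.45), OS9, a lectin that delivers substrates, at -0.57 (-0.64 to -0.50), and SYVN1, the ubiquitin ligase HRD1 itself, at -0.51 (-0.61 to -0.41). The conjugating enzyme UBE2J1 at 0.46 (0.34 to 0.57) and the mannosidase-related EDEM3 at 0.40 (0.24 to 0.57) were on the other side. After correction for GC content and length, the median of this list was -0.01, and on log2(TPM + 1) it was 0.15.

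Other stress transducers and regulators had a median of 0.12 over 19 genes, 10 intervals above and 5 below, and on either TPM scale the median was 0.23. DNAJC3 is counted both in this list and among the other folding factors. RTCB, the ligase that joins XBP1 exons after ERN1 has cut them, was at 0.52 (0.42 to 0.63), and MBTPS2, the protease that makes the second cut in ATF6, at 0.48 (0.29 to 0.67). The ER-bound factors NFE2L1 and CREB3 were at -0.44 (-0.49 to -0.39) and -0.36 (-0.48 to -0.24). Translocon, signal recognition and COPII genes had a median of 0.16 over 33 genes, 20 intervals above and 6 below. This median was 0.07 after correction for GC content and length and 0.28 on either TPM scale. SSR3, a translocon-associated subunit, was at 0.49 (0.44 to 0.55). STT3A, an oligosaccharyltransferase subunit, was at 0.42 (0.36 to 0.49) and SRPRA, the receptor of the signal recognition particle (SRPR in the file), at 0.39 (0.32 to 0.46). KDELR3, a retrieval receptor for luminal chaperones, was at -0.50 (-0.98 to -0.09) and SEC61G, a translocon subunit, at -0.42 (-0.55 to -0.29).

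The ATF4 and CHOP branch, which EIF2AK3 shares with other eIF2alpha kinases, had a median of -0.77 over 17 genes, with 14 intervals below a ratio of 1 and 2 above, and 8 genes called 2-fold lower, where 5.28% of all genes were. The 8 became 5 at a prior count of 20 and 6 with plain library totals or on either TPM scale, and the median became -0.54 after correction for GC content and length. Besides CHAC1, DDIT3 and SESN2, with log2 folds of -2.85, -2.38 and -1.75, the lowest were VLDLR, a lipoprotein receptor, at -1.51 (-1.70 to -1.34) and TRIB3, a pseudokinase that restrains the branch, at -1.32 (-1.38 to -1.25). Heat shock proteins outside the ER, a list that also holds their factor HSF1 and the mitochondrial chaperonins, had a median of 0.42 over 17 genes. Of their intervals, 14 lay above a ratio of 1 and 2 below. The median was 0.49 with plain library totals, 0.53 on either TPM scale and 0.49 after correction for GC content and length. Among the cytosolic HSP70 relatives of HSPA5, HSPA8 was at 1.31 (1.29 to 1.33), HSPA1B at 0.89 (0.82 to 0.96) and HSPA1A at 0.26 (0.18 to 0.33), with HSPA5 at 0.23 (0.20 to 0.27). The values of HSPA1A and HSPA1B are uncertain, since their sequences are almost the same and reads may be assigned to either. Of the cytosolic HSP90 genes, HSP90AA1 was at 1.20 (1.18 to 1.23) and HSP90AB1 at 0.57 (0.54 to 0.59), on either side of HSP90B1 at 0.71 (0.68 to 0.73). HSPA1A, HSPA1B and HSP90AB1 were chosen after their values were seen. The mitochondrial chaperonins HSPE1 at 0.95 (0.83 to 1.08) and HSPD1 at 0.93 (0.88 to 0.98) were also higher, and HSPB1, a small heat shock protein, was lower at -1.56 (-1.61 to -1.51).

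**Figure D4:**
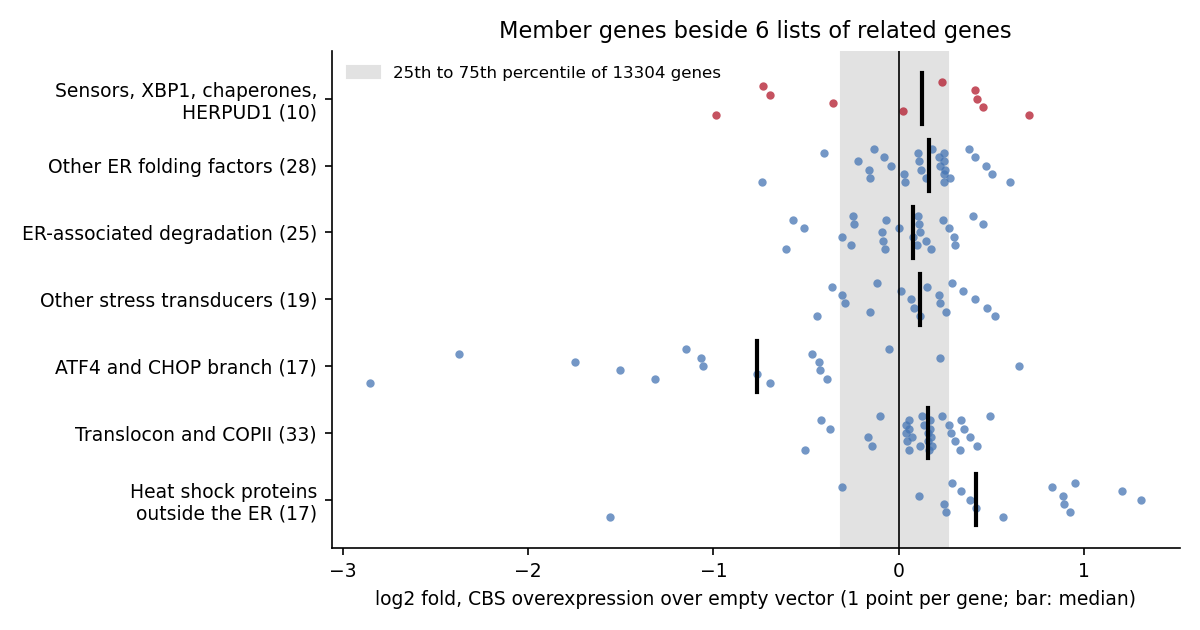
Log2 fold of each gene above the filter (points) in the 10 genes (red) and in 6 lists of related genes (blue), with the number of genes in brackets, medians as black bars and the 25th to 75th percentile of 13304 genes in grey. The medians run from -0.77 for the ATF4 and CHOP branch to 0.42 for heat shock proteins outside the ER, with the 10 genes at 0.13.

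Across scalings, prior counts and units, the member directions held for all but ATF6. HSP90B1 ranged from 0.58 to 0.79, XBP1 from -0.82 to -0.60, ERN1 from -0.74 to -0.55 and EIF2AK3 from -0.43 to -0.28.

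**Figure D5:**
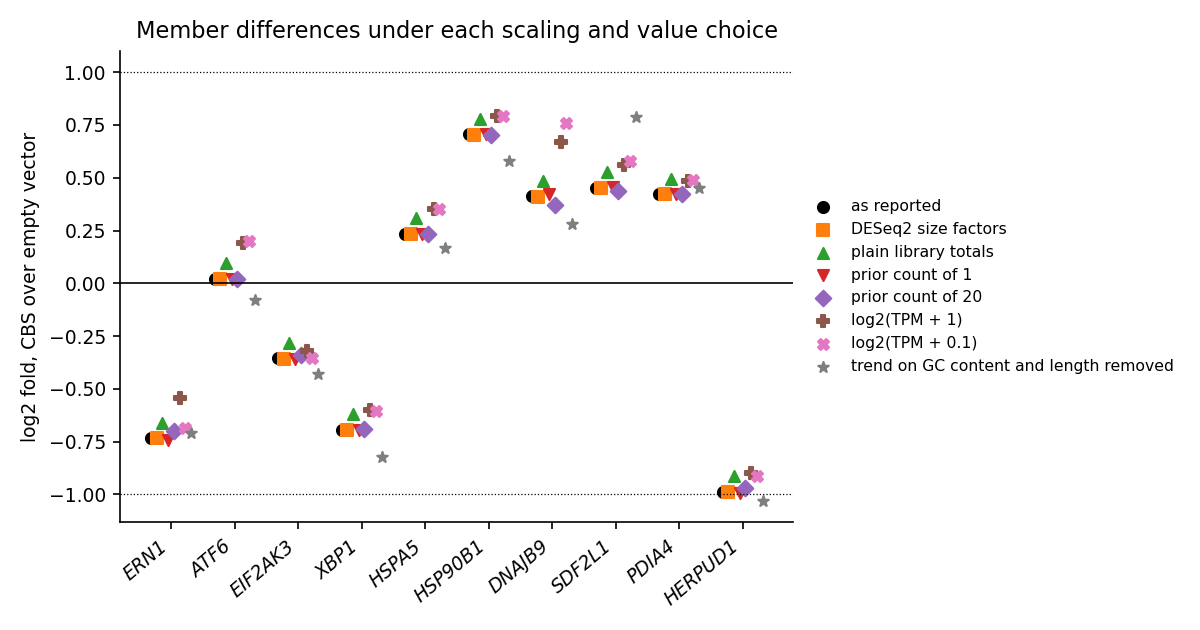
Log2 fold of each gene as reported (black circles) and under 7 other scaling and value choices (coloured symbols); dotted lines mark 2-fold. ATF6 is the gene whose points lie on both sides of 0, from -0.08 to 0.20, and SDF2L1 and DNAJB9 show the widest spread above 0.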

How the data were processed

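RNA was sequenced from 2 libraries of HBEC-3KT cells on the DNBseq platform, grouped by the genotype in the labels. The submitters' processing notes name Trimmomatic 0.39, STAR 2.6.1d, RSEM 1.3.2 and GRCh38 with no role or order; strand use, read layout and annotation release are not given in the sources used here. Expected counts, as the authors deposited them, were rounded to whole numbers. The authors also deposited TPM values, scaled for length and depth. TMM factors (edgeR 4.0.16, R 4.3.3; no model fitted) were 1.03 for CBS and 0.975 for the empty vector. Log2 folds carry a prior count of 5, and intervals are exact Clopper-Pearson 95% intervals of the count ratio without it, or Woolf intervals for ratios within a library, and Poisson intervals for TPM order. PCR-amplified reads are not independent molecules, so these may be too narrow. Totals of 20785957 and 20433062 counts left DNAJB9, at 157 and 109 counts, the least precise member.

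A gene was called at a 2-fold difference with an interval that excludes a ratio of 1. Members and lists were chosen with earlier results of these data known. In each list, up to 5 genes were named, those furthest from 0 in log2 fold among genes with 100 counts or more in 1 library, and 4 list genes were matched through a table of gene names. With 2 libraries no likeness of pattern is defined, so no gene is named for one. The calculation was tested on simulated Poisson counts scaled by plain library totals. These held no variation between cultures, so the test checks the code and not the calls made here. Alternatives were DESeq2 1.42.0 size factors, plain totals, prior counts of 1 and 20, log2(TPM + 1) and log2(TPM + 0.1) called on the fold alone, no filter, a filter of 100 counts, thresholds of 1.5-fold and none and, added after the data were seen, correction for GC content and length of the longest GENCODE 29 transcript (99.4% of kept genes matched by ID), as residuals of lowess fits (span 0.3, statsmodels 0.14.6). Before that correction, log2 fold and GC content had a Spearman correlation of -0.28 over 13225 genes. Genes richer in GC thus tended to be lower in the CBS library, and the source of this trend was not tested. Calculations used Python 3.11.15, pandas 2.3.3 and scipy 1.17.1. Promoters came from RefSeq.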

Additional observations from a re-analysis of the deposited data

How the results depend on the processing

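With 188 genes called higher and 703 lower over all genes, the other settings gave 121 higher at a prior count of 20, 377 lower on log2(TPM + 1), 351 higher on log2(TPM + 0.1), 431 and 1281 without the filter, 115 and 438 with at least 100 counts, 934 and 1712 at 1.5-fold, and 4199 and 4144 with no fold threshold. Of the 10 members, 1 was called higher and 3 lower at 1.5-fold, 5 and 4 with no fold threshold, and 1 was called lower after correction for GC content and length. Their median log2 fold of 0.13 was 0.27 on log2(TPM + 1), 0.28 on log2(TPM + 0.1), 0.20 with plain library totals and 0.04 after that correction, so its size depends on the scaling. The median of all genes was 0.09, 0.10, 0.07 and 0.00 under the same settings. The rise with plain totals, which change only the scaling between libraries, was therefore common to all genes. On TPM, part of the rise was common to all genes. The log2(TPM + 0.1) scale moved the median of all genes by 0.10, and a direction that rests on less, as for ATF6, is not settled. Over 90 member values under alternatives, including those that change the filter alone, none of a member whose interval excluded a ratio of 1 changed sign, 73 stayed within the counting interval and 17 left it. No paired analysis was possible because each group held 1 library. The spread between cultures, which depth does not reduce, limits every result here.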

Other observations

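Among all genes above the filter whose symbol has a RefSeq promoter window (9375), 16 had a window with ERSE letters. Their median log2 fold was 0.09, against 0.02 for all 9375, with 6 intervals above a ratio of 1 and 4 below. The 14 genes with ERSE-II letters had a median of 0.03, with 7 intervals above and 6 below. Both groups include members, so they are not independent of the values above. The share of counts on the mitochondrial genome was 9.24% with CBS and 9.79% with the empty vector.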
